A study of Saccharomyces cerevisiae with 15 samples.

Results

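Transcript levels of the proteins of the mitochondrial ribosome were examined in the yeast Saccharomyces cerevisiae grown on 5 different sole nitrogen sources. The members are the genes whose symbol is MRPL, MRPS or RSM followed by digits and that a probe set of the array names alone: 54 of the 5656 genes named by single-gene probe sets. They were chosen by name and not by their values. All 54 RefSeq genes with such a symbol were on the array, 34 of them for proteins of the large subunit (MRPL) and 20 for the small subunit (9 MRPS and 11 RSM genes). Each was represented by 1 probe set, except MRPL44, which has 2 and was represented by the brighter.

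The strain was CEN.PK113-7D, a prototrophic haploid laboratory strain of mating type a, in aerobic chemostats at 30 degrees and pH 5.0. The only nitrogen source was proline at 8.8 g/l, leucine at 10.0 g/l, phenylalanine at 5.0 g/l, methionine at 11.3 g/l or asparagine at 5.0 g/l, with 3 arrays for each and 15 in all. Asparagine was the reference, as a preferred nitrogen source, and the other 4 are non-preferred. All groups shared the strain, 7.5 g/l glucose as the growth-limiting nutrient, 6.6 g/l potassium sulfate and a dilution rate of 0.10 per hour, which in a chemostat at steady state sets the growth rate. The labels speak of triplicates and not of how the cultures were started, so the spread behind every p-value is that of these arrays and may be partly technical.

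Mitochondria carry their own ribosome, which translates the few messages of the mitochondrial genome, most of them for core subunits of the respiratory chain and the ATP synthase. Nearly all of its proteins are encoded in the nucleus, made in the cytosol and imported. Some have relatives in every ribosome, some only in bacteria, and others are found in mitochondria alone. By the uniform names in RefSeq, 24 members are of the universal kind, 9 of the bacterial kind and 20 specific to mitochondria, while RSM22 has no such name. In yeast, loss of a member of this ribosome commonly abolishes respiratory growth.

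Single-colour Affymetrix arrays were used, whose deposited signal is 1 linear intensity per probe set. The mean signal of an array without its top and bottom 2% was 150.09 to 150.15 on all 15, so the arrays had been scaled to a common mean. An intensity is relative to the RNA put on the array, and more transcript per cell cannot be told apart from a larger share of the RNA. Array medians were 48.1 to 49.8 with proline, 48.8 to 52.9 with leucine, 38.4 to 47.7 with phenylalanine, 45.3 to 47.8 with methionine and 51.3 to 55.3 with asparagine. Phenylalanine array 3 stood apart, with the lowest median (38.4) and the highest hybridisation control signal (1567, against 268.5 to 926.8 on the others). Across the other arrays these controls read 300.5 to 407.3 with proline, 268.5 to 657.5 with leucine and 380.9 to 453.7 with methionine, against 671.4 to 926.8 with asparagine. The 3' to 5' ratio of the actin control, a sign of RNA quality, was 1.65 to 1.86 with methionine, against 2.07 to 3.64 with asparagine. This actin ratio was 1.59 to 2.38 with proline, 1.78 to 2.32 with leucine and 2.02 to 3.35 with phenylalanine. The same ratio of the SPT15 control was 2.19 to 4.24 with phenylalanine and 3.41 to 3.77 with methionine, against 4.15 to 4.66 with asparagine. For SPT15 it was 3.71 to 5.2 with proline and 3.25 to 4.68 with leucine. A note deposited with phenylalanine array 1 calls it a re-run. Ribosomal RNA control probe sets were highest on 5 arrays (proline 2 and 3, leucine 3, phenylalanine 3 and methionine 2; 30.3 to 128.9, against 5.90 to 25.25 on the others), none of them with asparagine. The number 5 is a chosen setting that takes arrays by rank. The lowest of these (phenylalanine 3, 30.3) lay near the next array (leucine 2, 25.25), so they are not a separate class. The part of these differences in the results was not tested, and counts with those 5 arrays left out stand beside the main counts.

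Most members were measured well above the dim end of the arrays. The means of RSM23 and RSM22, 23.06 and 37.37, lay below the array medians of 38.4 to 55.3. Each of the 54 exceeded the 25th percentile of its array (8.2 to 13.2) on all 15 arrays, so none was lost to the filter. Their lowest single reading was 14.9 (RSM23) and their highest 1591.2 (RSM7). Readings of different probe sets are not comparable as amounts, so only differences between nitrogen sources are described.

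On the deposited scale the median mitoribosomal transcript was higher with leucine and with methionine than with asparagine, in between with phenylalanine, and close to the asparagine level with proline. The place of phenylalanine depended on the scaling: with every array centred on its median, leucine gave a median member difference from asparagine of 0.49, phenylalanine one of 0.47 and methionine one of 0.56. The median member stood at 7.63, 7.6 and 7.57 on the log2 scale on the proline arrays. It stood at 8.03, 8.11 and 8.15 with leucine, at 7.82, 7.72 and 7.98 with phenylalanine and at 7.99, 8.04 and 8.09 with methionine, against 7.69, 7.59 and 7.67 with asparagine. Every leucine, phenylalanine and methionine array was above every proline and asparagine array. The median of all tested probe sets did not move this way: it was 6.28 to 6.41 with leucine, 6.00 to 6.26 with phenylalanine and 6.22 to 6.29 with methionine, against 6.33 to 6.43 with asparagine.

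**Figure D1:**
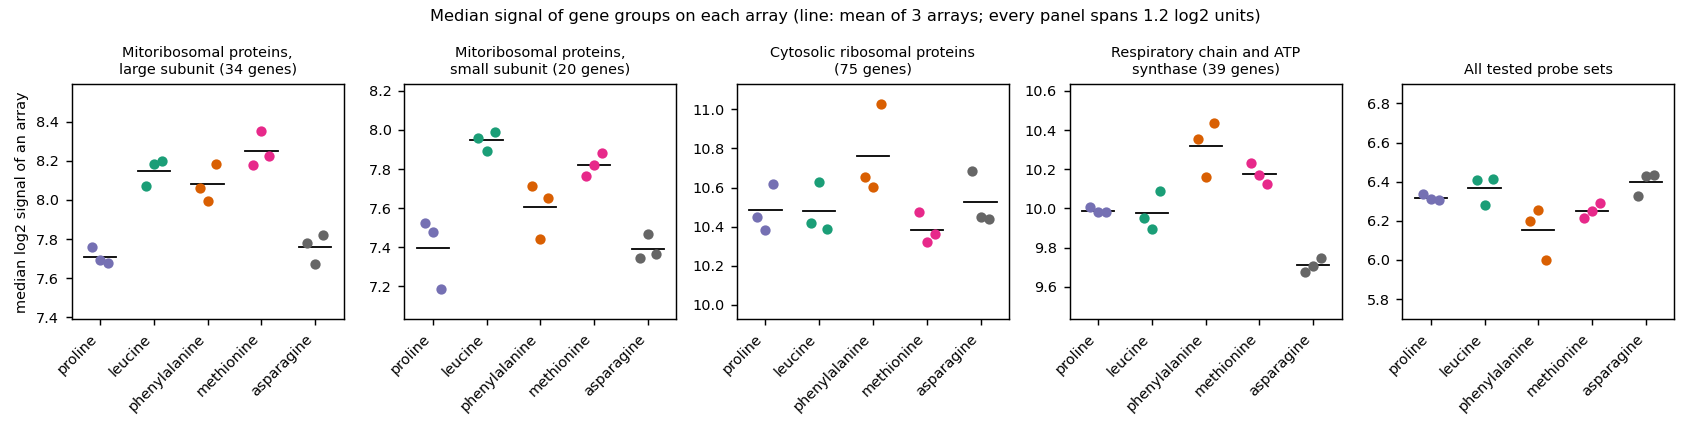
Median log2 signal on each array (vertical axis) for the large subunit members, the small subunit members, cytosolic ribosomal proteins, the respiratory chain with ATP synthase, and all tested probe sets, by nitrogen source; points are arrays, lines the mean of 3. Both subunits of the mitochondrial ribosome are higher on the leucine and methionine arrays, while the cytosolic ribosomal proteins lie between 10.32 and 10.63 there and between 10.44 and 10.69 with asparagine. With phenylalanine the cytosolic ribosomal proteins lie between 10.60 and 11.03.

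In the F test of limma over the 5 sources 39 of the 54 members (72.2%) passed an adjusted p of 0.05, against 52.2% of all 7459 tested probe sets. These were 24 of the 34 large subunit members and 15 of the 20 small subunit members. The highest of the 5 group means was that with leucine for 23 members, with methionine for 21, with phenylalanine for 7 and with asparagine for 3, namely MRPL7, MRPS16 and MRPS5. Proline gave the highest mean for 0 members. The lowest mean was that with proline for 25 members, with asparagine for 24, with phenylalanine for 4 and with methionine for 1. When the 5 arrays high in ribosomal RNA were left out, and proline had 1 array, 13 of 54 members passed the F test, a share below the 26.1% of all probe sets.

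With leucine 26 of 54 members (48.1%) were higher than with asparagine and 0 were lower. Of all probe sets 9.88% were higher and 11% lower. The median member difference was 0.46 on the log2 scale (1.38-fold), against -0.03 for all probe sets, and 50 of the 54 differences were above 0, as were 47.8% over all probe sets. All 3 leucine arrays exceeded all 3 asparagine arrays for 36 members, which was so for 18.2% of all probe sets. Differences were modest in size: 1 called member reached 2-fold. Without leucine array 3 the count was 17, and with the arrays high in ribosomal RNA left out it was 14 (25.9% of members), where 6.68% of all probe sets were higher.

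With methionine 28 members (51.9%) were higher than with asparagine and 0 were lower. Here 14.4% of all probe sets were higher and 24.2% lower. The median member difference was 0.41 (1.33-fold), against -0.09 for all probe sets, and 48 of 54 differences were above 0, as were 44.3% over all probe sets. The arrays did not overlap, with methionine above, for 37 members, against 22.3% of all probe sets. The count was 22 to 32 without any 1 array and 20 (37%) with the arrays high in ribosomal RNA left out, where 11.1% of all probe sets were higher. With every array centred on its median it was 40, against 20.4% of all probe sets higher.

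With phenylalanine 14 members (25.9%) were higher than with asparagine and 0 lower, against 7.56% of all probe sets higher and 18.1% lower. The median difference was 0.22 (1.17-fold) for the members and -0.16 for all probe sets, and 42 of 54 member differences were above 0, against 36.2% of all. The phenylalanine arrays lay above the asparagine arrays without overlap for 19 members, which held for 10.1% of all probe sets. The phenylalanine arrays scattered more than the others. Without phenylalanine array 3 the count was 11 and the median 0.16. Without asparagine array 2 the count was 9. With only the 6 arrays of both groups in the fit it was 4, against 3.32% of all probe sets higher, and with the arrays high in ribosomal RNA left out it was 3, against 4.26%. With the 3' to 5' ratio of the SPT15 control as a covariate 3 members were higher, against 3.75% of all probe sets. The count also depended on scaling: with every array centred on its median 24 members were higher, against 14.9% of all probe sets, and the medians were 0.47 for the members and 0.08 for all probe sets.

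With proline 0 members were higher than with asparagine and 3 (5.56%) were lower, RSM7, MRPS16 and RSM28. Of all probe sets 4.6% were higher and 8.7% lower. The median member difference was 0.00 with quartiles of -0.19 and 0.14, against -0.08 for all probe sets, and 26 members were above 0 and 28 below, where 41.3% of all probe sets were above. The proline arrays lay wholly above the asparagine arrays for 10 members, against 13.2% of all probe sets. They lay wholly below for 12 members, a direction for which no share of all probe sets was computed. With array weights in the fit 4 were higher and 8 lower, where 28.1% of all probe sets were called and 9.93% were higher. Without proline array 1, proline array 2 or asparagine array 3, or with the arrays high in ribosomal RNA left out, no member was called, and without asparagine array 1 only 1 was. Without phenylalanine array 2, which is in neither group and enters only the shared estimate of the spread, 5 were called. The 4 comparisons with asparagine share its 3 arrays, so their counts are not independent of each other.

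**Figure D2:**
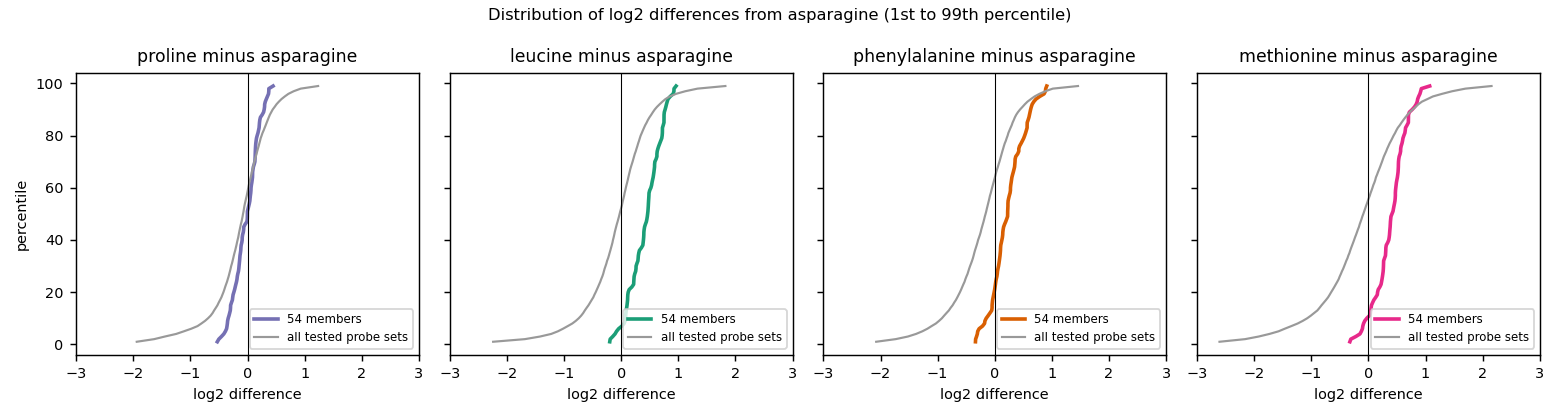
Distribution of the log2 difference from asparagine (horizontal axis) by percentile (vertical axis) for the 54 members (coloured) and all tested probe sets (grey), 1 panel for each other source. The member curve lies right of the grey curve over most of its length with leucine, phenylalanine and methionine, with medians of 0.46, 0.22 and 0.41, and crosses it between the 70th and the 71st percentile with proline.

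Proline provides a second reference that shares no array with asparagine. The leucine, methionine and phenylalanine arrays and the estimate of the spread were the same, however, so these counts are not independent of those against asparagine. Against proline 27 members (50%) were higher with leucine, 25 (46.3%) with methionine and 13 (24.1%) with phenylalanine, and 0 were lower with any of the 3. Of all probe sets 11.1% were higher and 8.27% lower with leucine, 10.6% higher and 11.9% lower with methionine, and 8.14% higher and 12.6% lower with phenylalanine. The median member differences from proline were 0.46 with leucine, 0.44 with methionine and 0.26 with phenylalanine. Those of all probe sets were 0.09, -0.0008 and -0.05 in the same order. With the arrays high in ribosomal RNA left out, which leaves proline 1 array and takes 1 from each of the other 3, the counts were 3 with leucine, 2 with methionine and 0 with phenylalanine, against 3.57%, 2.48% and 1.63% of all probe sets higher. Without proline array 3 alone, 17 were called with leucine.

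With leucine and with methionine, the 3 members that differed most from asparagine were MRPL44, MRPL4 and MRPL49 of the large subunit. MRPL44 (YMR225C) encodes a large subunit protein specific to mitochondria. It read 398.4, 398.6 and 396.4 with leucine, 305.6, 391.9 and 409.1 with phenylalanine and 357.3, 376.4 and 384.3 with methionine, against 220.3, 192.3 and 185.2 with asparagine. All 9 readings were above all 3 with asparagine, and the leucine arrays were nearly identical. The log2 difference was 1.00 ± 0.12 (SE) with leucine (2.00-fold, adjusted p = 1.9e-05), 0.88 with phenylalanine (adjusted p = 0.00011) and 0.91 with methionine (adjusted p = 4.3e-05). With proline it read 241.0, 232.6 and 260.9, which did not pass (0.30, adjusted p = 0.12). Its dimmer probe set showed 35.5, 30.7 and 43.7 with leucine, against 18.2, 13.1 and 16.8 with asparagine, a log2 difference of 1.19 (adjusted p = 0.00041). That probe set was also called with proline (0.68, adjusted p = 0.037), so the 2 disagree there.

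Several large subunit members line the region where the new polypeptide leaves the ribosome. MRPL4 (YLR439W), the relative of bacterial L29 at the exit of the tunnel, read 252.0, 401.2 and 293.3 with methionine, 288.4, 233.7 and 230.3 with leucine and 252.6, 248.2 and 231.3 with phenylalanine, against 116.5, 133.5 and 145.9 with asparagine. Each of these groups lay above the asparagine readings without overlap, and methionine array 2 was the highest. It was 2.36-fold higher with methionine (log2 1.24 ± 0.17 SE, adjusted p = 3.9e-05), 1.90-fold with leucine (adjusted p = 0.0007) and 1.86-fold with phenylalanine (adjusted p = 0.0012). MRPL40 (YPL173W), of the L24 family at the same site, read 351.3, 351.2 and 364.1 with methionine, against 235.5, 250.2 and 255.4 with asparagine, and rose 1.44-fold (adjusted p = 0.0017). It was also called with phenylalanine, a call lost in 9 of the 32 alternatives. MRPL22 (YNL177C), of the L22 family, read 84.2, 99.7 and 97.5 with leucine, against 57.7, 59.3 and 77.6 with asparagine (1.46-fold, adjusted p = 0.033), and this call was lost in 8 of the 32 alternatives. MRPL27 (YBR282W), specific to mitochondria, read 538.4, 563.7 and 526.9 with methionine and 436.7, 542.2 and 500.3 with leucine, against 321.8, 272.7 and 301.4 with asparagine. It was 1.82-fold higher with methionine (adjusted p = 0.00014) and 1.65-fold with leucine (adjusted p = 0.00088). Its phenylalanine readings of 294.8, 366.2 and 366.5 overlapped those with asparagine, and the direct difference between methionine and phenylalanine was 1.59-fold (adjusted p = 0.0025).

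MRPL11 and MRPL19, whose bacterial relatives lie at the base of the stalk where translation factors bind, were higher with leucine. MRPL11 (YDL202W), of the L10 family, read 174.9, 171.1 and 181.2 with leucine and 167.5, 143.5 and 164.8 with methionine, against 96.6, 113.5 and 112.0 with asparagine. The differences were 1.64-fold with leucine (adjusted p = 0.00033) and 1.48-fold with methionine (adjusted p = 0.0016). MRPL19 (YNL185C), of the L11 family, read 147.9, 156.9 and 164.9 with leucine, against 83.7, 93.4 and 103.2 with asparagine, a 1.68-fold difference (adjusted p = 0.0018). With methionine it read 91.5, 95.4 and 127.5, 1.51-fold lower than with leucine (log2 -0.59, adjusted p = 0.014). These methionine readings of MRPL19 overlapped those with asparagine. With phenylalanine MRPL19 read 144.3, 127.5 and 142.2 and was called against asparagine, a call lost in 5 of the 32 alternatives.

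**Figure D3:**
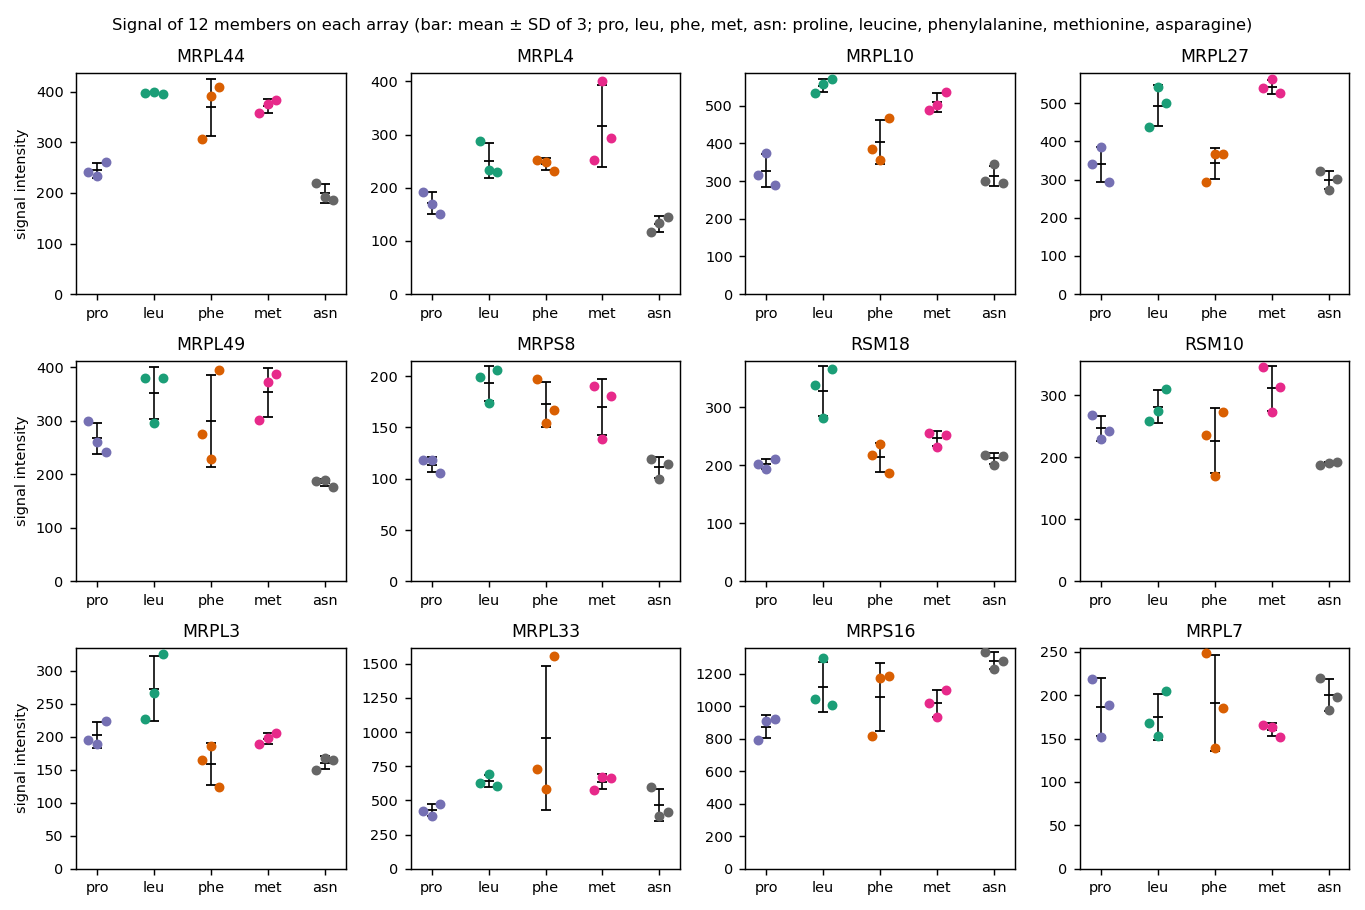
Signal intensity (vertical axis, linear from 0) of 12 members on each of the 15 arrays by nitrogen source, with the mean and SD of 3 arrays. MRPL44 and MRPL4 are higher with leucine, phenylalanine and methionine than with asparagine on every array; RSM18 and MRPL3 have their highest mean with leucine; MRPL33 is high on phenylalanine array 3; MRPS16 and MRPL7 are not raised.

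MRPL10, MRPL49, MRPL8 and MRPL23, which have relatives in bacteria, were higher with both leucine and methionine. MRPL10 (YNL284C), of the L15 family, read 534.4, 556.7 and 570.5 with leucine and 488.2, 501.1 and 537.8 with methionine, against 300.9, 344.7 and 294.9 with asparagine. It was 1.77-fold higher with leucine (adjusted p = 0.00021) and 1.63-fold higher with methionine (adjusted p = 0.00057). MRPL49 (YJL096W), of the L21 family, read 380.9, 295.2 and 380.3 with leucine and 300.8, 372.6 and 386.8 with methionine, against 187.2, 189.8 and 177.1 with asparagine. Both differences were close to 1.9-fold (adjusted p = 0.0014 with leucine and 0.00088 with methionine). With phenylalanine it read 276.0, 227.9 and 395.6 (1.58-fold, adjusted p = 0.015), and without phenylalanine array 3 this was not called (adjusted p = 0.063). MRPL8 (YJL063C), of the L17 family, read 583.4, 581.9 and 549.4 with leucine and 461.8, 532.2 and 484.5 with methionine, against 299.3, 323.6 and 404.6 with asparagine. Its differences were 1.68-fold (adjusted p = 0.00056) and 1.45-fold (adjusted p = 0.0047). MRPL23 (YOR150W), of the L13 family, rose 1.44-fold with leucine (adjusted p = 0.0061) and 1.42-fold with methionine (adjusted p = 0.0048). MRPL8 and MRPL23 were also called with phenylalanine, calls lost in 4 and 6 of the 32 alternatives.

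MRPL24 (YMR193W), of the L28 family, was higher with leucine and with methionine than with proline, a pair of calls that only a 2-fold minimum removed, as was so for MRPL10. It read 293.1, 328.7 and 300.2 with leucine and 287.7, 325.2 and 300.4 with methionine, against 180.6, 196.1 and 195.2 with proline. The asparagine readings of 235.7, 218.8 and 250.5 lay in between. The leucine and methionine readings were 1.61-fold (adjusted p = 0.00033) and 1.60-fold (adjusted p = 0.00036) those with proline, and 1.31-fold and 1.30-fold those with asparagine (adjusted p = 0.02 and 0.015). MRPL36 (YBR122C), of the L31 family, was 1.65-fold higher with leucine than with proline (adjusted p = 0.00038).

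Among the large subunit proteins found only in mitochondria, MRPL3 (YMR024W), whose sequence is related to ribonuclease III, was high with leucine. It read 227.0, 266.1 and 325.0 with leucine, against 149.5, 167.6 and 164.9 with asparagine, a 1.68-fold difference (adjusted p = 0.0029). With phenylalanine it read 165.3, 186.7 and 123.5, which was 1.73-fold lower than with leucine (adjusted p = 0.0043), and with methionine 189.5, 197.6 and 205.2 (1.23-fold over asparagine, adjusted p = 0.15). MRPL13 (YKR006C) was instead highest with methionine, at 360.7, 382.8 and 429.7, against 254.5, 241.8 and 249.3 with asparagine (1.57-fold, adjusted p = 0.00057). MRPL15 (YLR312W-A) read 327.6, 346.9 and 312.9 with methionine, against 200.5, 232.5 and 222.3 with asparagine (1.51-fold, adjusted p = 0.0014). It was also called with leucine, a call lost in 8 of 31 alternatives. Its probe set carries the suffix for sequence shared with other transcripts, so its value is uncertain. MRPL31 (YKL138C) read 214.3, 213.2 and 228.0 with methionine, against 133.0, 124.9 and 120.1 with asparagine (1.73-fold, adjusted p = 0.0038). MRPL31 was also called with leucine and phenylalanine, calls lost in 3 and 9 of the 32 alternatives. MRPL17 (YNL252C) read 245.8, 344.5 and 265.4 with leucine, against 137.6, 179.8 and 247.6 with asparagine, so that the groups overlapped (1.54-fold, adjusted p = 0.023). Without asparagine array 1 this leucine call was lost (adjusted p = 0.12). With phenylalanine MRPL17 read 324.1, 263.6 and 256.9, above every asparagine reading, and was called. That call was lost in 8 of the 32 alternatives.

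MRPL33 (YMR286W), of the L30 family, had the largest difference of any member with phenylalanine, and it rested on 1 array. It read 728.5, 580.9 and 1555.5 with phenylalanine, against 597.3, 382.5 and 418.1 with asparagine. Array 3 was more than the sum of the other 2, and array 2 lay within the range with asparagine. The 1.90-fold difference (adjusted p = 0.019) was not called without phenylalanine array 3 (adjusted p = 0.056), without asparagine array 2 (adjusted p = 0.074) or without asparagine array 3 (adjusted p = 0.07). MRPL39 (YML009C), of the L33 family, read 1410.3, 1350.1 and 1435.9 with methionine, against 900.9, 1048.2 and 1036.0 with proline (1.41-fold, adjusted p = 0.01).

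In the small subunit, MRPS8 was higher with 3 of the sources. MRPS8 (YMR158W), of the S8 family that in bacteria binds the central domain of the ribosomal RNA, read 199.3, 173.8 and 205.6 with leucine, 197.0, 153.9 and 166.7 with phenylalanine and 190.2, 139.2 and 181.0 with methionine, against 119.1, 99.7 and 114.3 with asparagine. Its differences were 1.74-fold with leucine (adjusted p = 0.00086), 1.55-fold with phenylalanine (adjusted p = 0.0056) and 1.52-fold with methionine (adjusted p = 0.0043). With the SPT15 covariate the phenylalanine call was lost (adjusted p = 0.15), as was the methionine call with the actin covariate (adjusted p = 0.059). MRPS18 (YNL306W), of the S11 family, was also higher with leucine (1.39-fold, adjusted p = 0.018), phenylalanine (1.43-fold, adjusted p = 0.012) and methionine (1.4-fold, adjusted p = 0.01).

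RSM18 and MRPS9 were among the small subunit members that rose with leucine. RSM18 (YER050C), of the bacterial S18 family, read 337.1, 281.7 and 365.7 with leucine, against 217.5, 201.2 and 216.2 with asparagine (1.54-fold, adjusted p = 0.0017). It was 1.53-fold lower with phenylalanine than with leucine (adjusted p = 0.0041) and 1.33-fold lower with methionine than with leucine (adjusted p = 0.033). MRPS9 (YBR146W), of the S9 family, read 239.5, 273.1 and 281.1 with leucine, against 134.8, 163.8 and 185.5 with asparagine (1.65-fold, adjusted p = 0.0016). MRPS9 was also called with methionine, a call lost in 6 of the 32 alternatives. RSM10 (YDR041W), of the S10 family, was highest with methionine, at 345.8, 273.6 and 314.4, against 188.2, 191.5 and 192.1 with asparagine (1.63-fold, adjusted p = 0.0025). RSM10 was also called with leucine, a call lost in 3 of the 32 alternatives. With proline RSM10 read 268.5, 230.2 and 242.0, above all 3 asparagine arrays, although that difference did not pass.

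Of the dimmer small subunit members, RSM27 and RSM23 passed with methionine. RSM27 (YGR215W), specific to mitochondria, read 55.7, 55.4 and 114.2 with methionine, against 40.3, 35.5 and 42.1 with asparagine (1.80-fold, adjusted p = 0.039). Without methionine array 3 it did not pass (adjusted p = 0.21). RSM23 (YGL129C), the relative of the human protein DAP3, read 30.9, 27.4 and 29.6 with methionine, against 14.9, 18.7 and 21 with asparagine (1.62-fold, adjusted p = 0.031), and its call was lost in 10 of the alternatives. RSM22 (YKL155C), a methyltransferase-like protein, read 50.9, 47.5 and 52.5 with leucine, against 33.9, 31.1 and 30.1 with proline (1.59-fold, adjusted p = 0.026). RSM26 (YJR101W), whose fold is that of a superoxide dismutase, read 169.0, 176.1 and 160.8 with methionine, against 106.4, 106.2 and 92.9 with proline (1.66-fold, adjusted p = 0.00033).

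The 3 members lower with proline than with asparagine all belong to the small subunit. They are 5.56% of the members, below the 8.7% of all probe sets that were lower. Their number is therefore not read as a result about the members. RSM7 (YJR113C), of the S7 family, read 845.4, 997.7 and 1031.3 with proline, against 1287.0, 1245.0 and 1306.6 with asparagine (log2 -0.42 ± 0.11 SE, adjusted p = 0.025). MRPS16 (YPL013C), of the bacterial S16 family, read 791.0, 906.6 and 918.3 with proline, against 1330.8, 1226.4 and 1277.4 with asparagine (log2 -0.55 ± 0.14 SE, adjusted p = 0.021). RSM28 (YDR494W), specific to mitochondria, read 222.2, 222.6 and 168.0 with proline, against 247.1, 321.7 and 301.4 with asparagine (log2 -0.51 ± 0.16 SE, adjusted p = 0.043). None of the 3 overlapped between the groups. Each call was lost in 9 or more of the 32 alternatives, among them centring on the array median (adjusted p = 0.14 for RSM7, 0.093 for MRPS16 and 0.072 for RSM28).

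For 3 members, picked for this, the highest mean was that with asparagine. MRPS16 was highest with asparagine of the 5 sources: with leucine it read 1046.2, 1294.7 and 1009.2 and with methionine 1016.6, 935.4 and 1100.5, and neither difference from asparagine passed (adjusted p = 0.36 and 0.081). MRPL7 (YDR237W), of the L5 family, read 168.0, 153.3 and 204.6 with leucine and 165.3, 163.9 and 151.7 with methionine, against 219.8, 183.1 and 197.8 with asparagine. Its log2 differences were -0.20 with leucine (95% confidence interval -0.61 to 0.21) and -0.32 with methionine (-0.72 to 0.09). MRPS5 (YBR251W), of the S5 family, differed by -0.06 with leucine (-0.43 to 0.31) and -0.09 with methionine (-0.46 to 0.28).

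**Figure D4:**
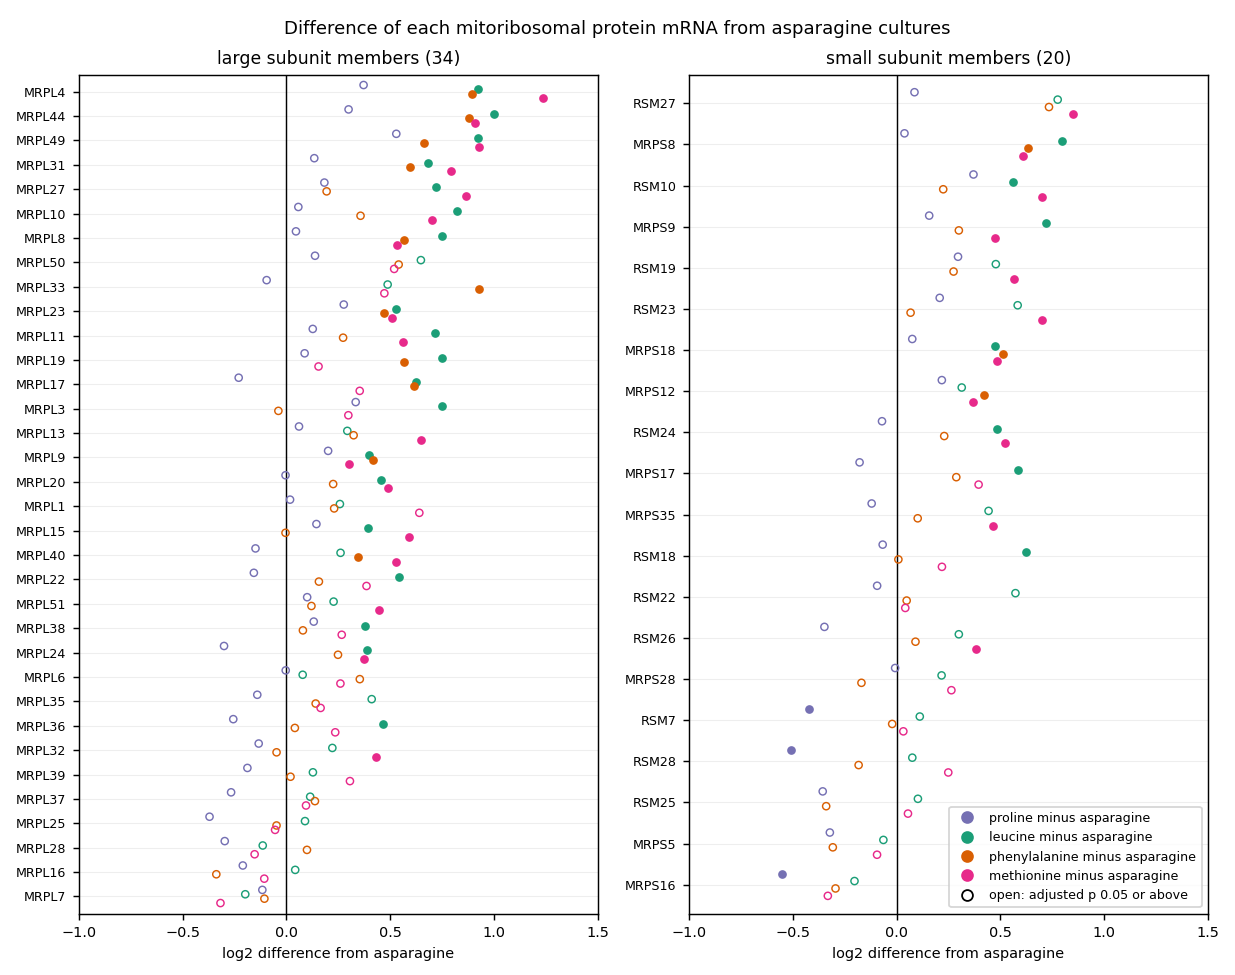
Log2 difference from asparagine (horizontal axis) of every member, large subunit left and small subunit right, ordered by the mean over the 4 sources; filled points passed an adjusted p of 0.05. MRPL4 and MRPL44 lead the large subunit and RSM27 and MRPS8 the small, and MRPS16 is last with all 4 differences below 0.

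Leucine, methionine and phenylalanine could also be set against each other. Between methionine and leucine 3 members passed, MRPL13 higher and MRPL19 and RSM18 lower with methionine, against 6.97% of all probe sets higher and 11.8% lower. The median member difference was -0.02. The 1 higher member is 1.85% of the 54 and the 2 lower 3.7%. With methionine 5 members (9.26%) were higher than with phenylalanine (MRPL27, MRPL15, MRPL32, RSM10 and MRPS28) and 0 were lower, against 12.8% and 9.48% of all probe sets. With phenylalanine 7 (13%) were lower than with leucine (MRPL3, RSM18, MRPL27, MRPL10, MRPL11, MRPL36 and MRPL15) and 0 higher, against 8.51% and 4.32% of all probe sets. With the arrays high in ribosomal RNA left out 3 were called between methionine and phenylalanine and 0 in the other 2 comparisons. The counts of that refit are not set beside shares of all probe sets, so a loss particular to the members cannot be told from a general one. Of the 15 main calls among these 3 sources only that of MRPL27, higher with methionine than with phenylalanine, was kept in every alternative other than a 2-fold minimum.

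Members of both subunits and of all 3 kinds of protein were among those called. With leucine 19 of 34 large subunit and 7 of 20 small subunit members were higher than with asparagine, with median differences of 0.43 and 0.48. With methionine 17 and 11 were higher, with medians of 0.44 and 0.39. With phenylalanine 11 and 3 were higher, with medians of 0.24 and 0.10. By kind, 13 of 24 universal, 5 of 9 bacterial and 8 of 20 mitochondria-specific members were higher with leucine, and 12, 4 and 12 with methionine. Whether the kinds or the subunits differ was not tested. The members lie on 14 chromosomes, with at most 9 on 1 of them (IV), and 1 pair, MRPS12 and RSM19, are neighbours.

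Other proteins of the mitochondrial ribosome that carry different gene names were counted from a separate list. List counts here and below stand beside these shares of all probe sets against asparagine. With proline 4.6% were higher and 8.7% lower, and with leucine 9.88% and 11%. With phenylalanine the shares were 7.56% higher and 18.1% lower, and with methionine 14.4% and 24.2%. Of 24 such genes tested, 1 was higher with proline than with asparagine, 14 were with leucine, 8 with phenylalanine and 11 with methionine, and 0 were lower in any of these. Their median differences were 0.44 with leucine, 0.34 with phenylalanine, 0.39 with methionine and -0.06 with proline. NAM9, of the S4 family, was higher with leucine (log2 0.76, adjusted p = 0.00043), phenylalanine (0.61, adjusted p = 0.0031) and methionine (0.70, adjusted p = 0.0006). IMG1 was likewise higher with the 3 sources (0.48, 0.62 and 0.77, adjusted p = 0.0061, 0.0012 and 0.0001). YML6, of the L4 family, rose with leucine (0.43, adjusted p = 0.0094) and phenylalanine (0.47, adjusted p = 0.006). MRP49 was the gene higher with proline (0.55, adjusted p = 0.026). VAR1, the small subunit protein encoded in mitochondrial DNA, was listed at 0.2 to 2.5 on all arrays and was not tested.

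Genes that work with this ribosome were in part higher too. Of 15 mitochondrial translation factors and associated proteins tested, 0 were higher with proline, 5 were with leucine, 2 were with phenylalanine and 8 were with methionine, and 0 were lower. The release factor gene MRF1 rose with leucine (0.71, adjusted p = 0.0042), phenylalanine (0.56, adjusted p = 0.019) and methionine (0.83, adjusted p = 0.0009). MBA1, which ties the ribosome to the inner membrane, was higher with phenylalanine (0.83, adjusted p = 0.00051) and methionine (0.79, adjusted p = 0.00037). The elongation factor paralogue GUF1 rose with leucine (0.94, adjusted p = 0.0015) and methionine (0.58, adjusted p = 0.021). Of 13 mitochondrial aminoacyl-tRNA synthetases, 5 were higher with leucine, 3 with phenylalanine and 7 with methionine, with 0 lower, and 1 (SLM5) was lower with proline. ISM1, which charges mitochondrial isoleucine tRNA, was higher with methionine (1.45, adjusted p = 4.5e-05) and leucine (0.95, adjusted p = 0.0023).

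Of 15 genes of ribosome assembly and RNA modification, 7 were higher with leucine, 1 with phenylalanine and 6 with methionine, while 1 was lower with methionine (MTG1, a GTPase of large subunit assembly) and 1 with proline (SLM3, a tRNA thiolation enzyme). MRM1, a methyltransferase of the large ribosomal RNA, was higher with leucine (1.00, adjusted p = 0.00029) and methionine (0.74, adjusted p = 0.0023). Of 14 translational activators of single mitochondrial messages, 4 were higher with leucine and 5 with methionine, and 1 (ATP22) was lower with methionine. Of 19 genes of mitochondrial protein import, the route by which the members' proteins reach the organelle, 4 were higher with proline, 10 were with leucine, 5 were with phenylalanine and 11 were with methionine, and 0 were lower. TOM5, a small subunit of the outer membrane import pore, was higher with proline (0.96, adjusted p = 0.00097), leucine (1.31, adjusted p = 1.1e-05), phenylalanine (0.90, adjusted p = 0.00061) and methionine (1.27, adjusted p = 1.3e-05). Of 9 genes of mitochondrial DNA transcription and upkeep, 1 was higher with each source, and 2 were lower with methionine (ABF2 and MIP1, which package and copy that DNA). These last counts were near the shares of all probe sets, 4.6% to 14.4% higher and, with methionine, 24.2% lower.

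**Figure D5:**
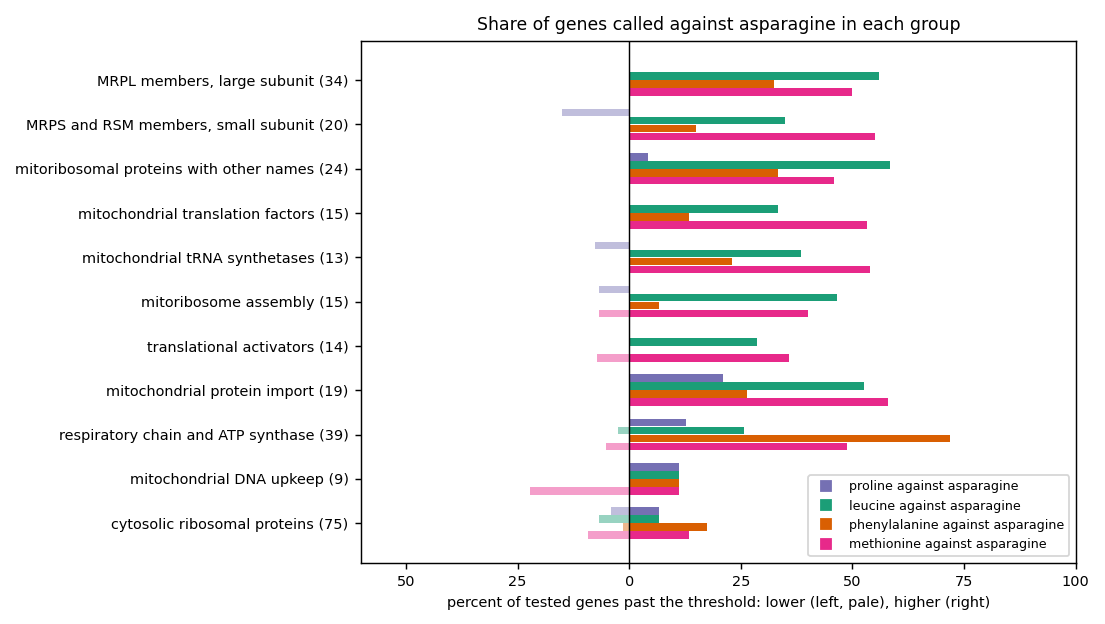
Percent of the tested genes of each group (number in brackets) that were higher (right) or lower (left, pale) than with asparagine at an adjusted p under 0.05, for proline, leucine, phenylalanine and methionine. Leucine and methionine bars are long for both subunits and for the other mitoribosomal proteins, while the respiratory chain has its longest bar with phenylalanine (28 of 39 genes).

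For the cytosolic ribosome, whose protein genes follow growth rate in yeast, calls went in both directions with each source, though mostly upward with phenylalanine. Of 75 cytosolic ribosomal protein genes with a single-gene probe set, 5 were higher with leucine and 5 lower, 10 higher with methionine and 7 lower, 13 higher with phenylalanine and 1 lower, and 5 higher with proline and 3 lower. Their medians were 0.02, -0.06, 0.23 and -0.01 for leucine, methionine, phenylalanine and proline. With phenylalanine the cytosolic median of 0.23 was near the members' 0.22, against -0.16 for all probe sets. Of all probe sets 7.56% were higher and 18.1% lower with that source. The nuclear genes of the respiratory chain and the ATP synthase, which build the complexes that the mitochondrial ribosome supplies, ordered the sources otherwise. Of 39 such genes, 28 were higher with phenylalanine and 0 lower, 19 higher with methionine and 2 lower, 10 higher with leucine and 1 lower, and 5 higher with proline and 0 lower. Their medians were 0.51, 0.31, 0.22 and 0.07, where the members' medians for these sources were 0.22, 0.41, 0.46 and 0.00. The order of sources was thus not the same in the 2 groups of genes, a difference that was described and not tested.

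Of 13 regulators of respiratory or ribosomal genes tested, 0 were higher with proline and 2 lower, 0 higher with leucine and 1 lower, 2 higher with phenylalanine and 3 lower, and 3 higher with methionine and 4 lower. Among all probe sets 7.56% were higher and 18.1% lower with phenylalanine, and 14.4% and 24.2% with methionine. The regulator counts are not read as a result about this list. HAP4, the activating subunit of the complex that switches on respiratory genes, read 904.0, 533.6 and 766.4 with phenylalanine and 556.8, 829.6 and 636.0 with methionine, against 347.1, 442.6 and 522.9 with asparagine. It was higher with phenylalanine (0.73, adjusted p = 0.014) and methionine (0.62, adjusted p = 0.021). HAP3, a DNA-binding subunit of that complex, was higher with the same sources (0.64, adjusted p = 0.0025; 0.56, adjusted p = 0.0037), while HAP2 was lower with proline (-0.76, adjusted p = 0.04) and methionine (-1.09, adjusted p = 0.0016). MIG1, a repressor that acts when glucose is plentiful, was lower with phenylalanine (-0.86, adjusted p = 0.0011), methionine (-0.86, adjusted p = 0.0006) and leucine (-0.50, adjusted p = 0.034). PUF3, an RNA-binding protein known to bind many messages of this family, averaged 3.03 to 5.73 in the 5 groups, too dim to be tested. Of the mitochondrial DNA's own messages 4 of 8 could be tested, and 2 of these, COX1 and OLI1, were higher with methionine.

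The firmest member differences were those that no alternative removed. Of the 71 member calls against asparagine, 28 were kept in each alternative run for them other than a 2-fold minimum, and 0 changed direction. For MRPL15 the alternative without shared-sequence probe sets could not be run, since it removes its only probe set. Of the 26 leucine calls 13 were kept, of the 14 phenylalanine calls 2, of the 28 methionine calls 13 and of the 3 proline calls 0. MRPL4 and MRPL44 were kept with leucine, phenylalanine and methionine. MRPL8, MRPL10, MRPL11, MRPL23, MRPL27 and MRPL49 were kept with leucine and methionine. With leucine, MRPL3, MRPL19, MRPS8, MRPS9 and RSM18 were kept as well, and with methionine MRPL13, MRPL15, MRPL31, MRPL40 and RSM10.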

How the data were processed

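The authors deposited 1 linear signal intensity per probe set for each of 15 Affymetrix YG_S98 arrays, made with MAS5 per the submitters' processing notes. Neither its version nor its scaling target is given in the sources used here. The labels gave each array its group and number. The 60 control probe sets were left out of the tests, leaving 9275. Probe sets were named by the platform annotation, and RefSeq supplied uniform names and neighbours. Intensities below 2, the 10th percentile, were set to 2 and log2 transformed, which understates changes of dim probe sets. The 7459 probe sets above the array's 25th percentile on at least 3 arrays were tested (80.4%).

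All 15 arrays entered 1 model in limma 3.58.1 (R 4.3.3) with a mean for each group, and eBayes was run with an intensity trend. Tests were 2-sided, and p-values were adjusted by Benjamini-Hochberg over all tested probe sets within each comparison, with a threshold of 0.05. In the text "higher" and "lower" counts use that threshold, folds are ratios on the floored scale, and SE is the standard error of the fit. Where several probe sets name 1 gene, the brightest stood for it. Lists of related genes were written from general knowledge. Members named followed a rule: the largest non-overlapping changes, smallest F-test p, extreme signals, calls near the threshold and departures from the median member. MRPL23, MRPS5, MRPS9, RSM18 and the members listed in the comparison between leucine, methionine and phenylalanine or as kept in all alternatives were added after their values were seen. The members and lists were chosen with earlier results of these data known. Median differences of a list are descriptions without a test.

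The fit was tested on simulated data made from these arrays, in which 92% of 4-fold and 73% of 2-fold changes were recovered for methionine against asparagine over 7459 probe sets. The noise was drawn for each probe set on its own, and few probe sets were changed, in the methionine group alone. No change under 2-fold was simulated, so recovery of the mostly smaller member differences is not known from it. With 3 arrays a group, the number of arrays limits the precision. The same array numbers in different groups did not in general mark related arrays: the correlations of their deviations from group means ran from -0.25 to 0.40 over 30 pairs, with 11 above 0.1, among them all 3 of phenylalanine with proline (0.12 to 0.24).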

Additional observations from a re-analysis of the deposited data

How the results depend on the processing

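Results were recomputed under up to 32 alternatives, 15 of which left out 1 array. The fit of only 6 arrays was run for comparisons with asparagine alone, MRPL15 has no value without shared-sequence probe sets, and RSM22 and RSM23 have none with the filter at the 50th percentile. The counts of members called against asparagine and their medians kept their direction in these, save the counts and the median near 0 with proline. With quantile normalization the phenylalanine count was 22 (21 higher, 1 lower) and the median 0.35. In that fit 22.2% of all probe sets were called and 11.4% were higher, and their median was 0.01. Median centring moved the phenylalanine count to 24 and median to 0.47, the methionine median to 0.56, and the proline count to 0 and median to 0.076. With that centring 23% of all probe sets were called with phenylalanine and 12% with proline. Array weights gave 12 proline calls (4 higher, 8 lower), the actin covariate 1 and the hybridisation covariate 1. The SPT15 covariate left 3 phenylalanine calls, and a fit of only the 6 arrays of both groups 4. With the 5 arrays of high ribosomal RNA signal left out the F test count was 13, and the proline, leucine and phenylalanine counts 0, 14 and 3. With a 2-fold minimum these were 3, 0, 1 and 0, and the methionine count 1.

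Leaving out 1 array gave 33 to 41 for the F test, 0 to 5 for proline, 17 to 30 for leucine, 9 to 20 for phenylalanine and 22 to 32 for methionine. The medians ran from -0.05 to 0.03, 0.40 to 0.48, 0.16 to 0.29 and 0.35 to 0.45 for the same sources. With the array number as a replicate block the counts were 41 for the F test, 2 for proline, 29 for leucine, 15 for phenylalanine and 29 for methionine, and against proline 28, 13 and 27 for leucine, phenylalanine and methionine. Apart from that fit, the deviations from group means of 5 of 15 arrays correlated best, on average, with arrays of their own number in other groups. Counts in this paragraph are not set beside shares of all probe sets. A change particular to the members cannot be told from a general one by them. The causes of these shifts were not tested. Leaving arrays out also lowers the number of arrays, which cannot be told apart from the traits of the arrays removed.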
